A study of Mus musculus with 6 samples.

Results

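The MYC, MAX and MXD network is a set of basic helix-loop-helix leucine zipper transcription factors that share the dimer partner MAX. The 10 genes described here are Myc, Mycn, Mycl, Max, Mxd1, Mxd3, Mxd4, Mxi1, Mnt and Mga, of 33084 genes in the count table, and all 10 had enough counts to be tested. They were selected on family membership after Mxd4 had been seen higher in the heterozygotes of these same libraries, so their differences between genotypes are a description and carry no test. Forebrain RNA came from mouse embryos at embryonic day 15.5, with 3 wild-type (wt) libraries and 3 libraries of embryos heterozygous for an inactivated Dyrk1a (Dyrk1a+/-), both genotypes from the Dyrk1a+/- line and each library labelled a biological replicate. Dyrk1a encodes a dual-specificity kinase that acts on cell cycle exit and brain growth. For strain, sex and the inactivated part of the gene, the labels hold no entry. The tissue was dissected forebrain, so each value is a mix of progenitors, neurons, vessels, meninges and blood, in which fewer cells of a type and less RNA per cell cannot be told apart.

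MYC proteins bind DNA as dimers with MAX, mostly at the E-box CACGTG, and activate genes of growth, ribosome production and cell division. MXD proteins and MNT compete for MAX at the same sites and recruit the SIN3 corepressor and its histone deacetylases. In many tissues MYC and MYCN mark dividing progenitors, MXD1, MXD4 and MXI1 mark cells that leave the cycle, and MXD3 is known from cells in S phase. MGA is a large protein that has both a T-box domain and a helix-loop-helix, and joins MAX in a Polycomb complex known as PRC1.6.

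The MAX dimers act through the 6 letters CACGTG, so these were searched in the RefSeq promoter windows of the members (GRCm38.p6, 250 bases before to 50 after a start site; the letters are their own reverse complement, so both strands are covered). An entry was present for 9 of the 10 members; Myc had none. The letters were present in the windows of 3 members: Mxd4 and Mnt, both repressor genes, and Max, the shared partner. Of 12299 tested genes with a window, 11% held the letters, as did 7.15% of all 32851 windows. The 3 windows are printed because they place the network's own recognition letters in front of its own genes, with CACGTG in capitals; each is on GRCm38.p6 and is written 5′ to 3′ along the gene. The Mxd4 window is chr5:34187661-34187960 on the minus strand, the Max window chr12:76962199-76962498 on the minus strand and the Mnt window chr11:74830674-74830973 on the plus strand.
Mxd4: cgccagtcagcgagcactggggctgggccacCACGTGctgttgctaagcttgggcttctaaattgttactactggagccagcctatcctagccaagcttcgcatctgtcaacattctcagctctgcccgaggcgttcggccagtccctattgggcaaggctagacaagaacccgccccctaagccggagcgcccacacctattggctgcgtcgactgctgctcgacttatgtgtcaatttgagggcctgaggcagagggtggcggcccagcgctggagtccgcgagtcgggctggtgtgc
Max: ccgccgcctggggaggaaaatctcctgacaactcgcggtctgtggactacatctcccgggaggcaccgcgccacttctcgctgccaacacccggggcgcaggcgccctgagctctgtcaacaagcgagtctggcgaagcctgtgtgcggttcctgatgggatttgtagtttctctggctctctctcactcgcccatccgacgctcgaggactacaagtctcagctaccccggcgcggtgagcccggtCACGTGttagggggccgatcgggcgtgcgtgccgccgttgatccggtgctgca
Mnt: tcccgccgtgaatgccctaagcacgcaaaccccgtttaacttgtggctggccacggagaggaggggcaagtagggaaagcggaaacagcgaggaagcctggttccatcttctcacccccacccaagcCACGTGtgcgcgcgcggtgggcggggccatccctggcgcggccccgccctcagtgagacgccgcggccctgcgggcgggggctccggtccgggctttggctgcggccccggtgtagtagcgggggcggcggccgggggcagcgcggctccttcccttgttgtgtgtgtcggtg

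The first letter of the E-box lay 219 bases before the start site of Mxd4, 123 bases before that of Mnt and 3 bases before that of Max. The windows of Mycn, Mxd1, Mxd3, Mga and Mycl, and the 3 windows of Mxi1, had no CACGTG. With the related letters CACGCG and CATGTG allowed on either strand, 6 of 9 members had a match, against 35% of tested genes. A match is a description of the letters, not a measured site.

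The libraries held 18699434 to 32865708 counts, and the genes that check the samples were read first. Dyrk1a (ENSMUSG00000022897, chromosome 16, 94570010 to 94695517) had 174 ± 12.9 CPM (counts scaled to one common effective library size) in wt and 151 ± 6.28 in Dyrk1a+/- (SD, n = 3 each), and all Dyrk1a+/- libraries lay below all wt libraries. Its log2 fold change was -0.20 (SE 0.079), and it was not called (edgeR's quasi-likelihood test over all genes, Benjamini-Hochberg adjusted p = 0.59). The Dyrk1a+/- mean was 0.868 of wt, a small drop that does not by itself settle the genotype of the libraries. All 8 forebrain identity markers were tested, while 7 of 8 markers of midbrain, hindbrain and cord were too low to test, with Hoxb2 at 0 in all libraries. The wt replicate 3 and Dyrk1a+/- replicate 2 libraries stood apart, with 4.46% and 4% of counts in the non-coding 7SK, RNase P and RNase MRP RNAs against 2.57% to 3.01% in the 4 others, so member differences are also given within that pair and within the 4 others. For Dyrk1a these were -0.13 and -0.24.

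In outline, the MXD genes were higher in Dyrk1a+/- forebrain while Mycn, Mycl and Max had means within a few percent of wt. Mxd4 had a mean 1.3-fold that of wt, Mxd3 1.25-fold, Mxd1 1.19-fold and Mxi1 1.11-fold. Mycn, Mycl and Max were at 1.01, 1.02 and 0.998 of wt, and Myc at 0.904. All 3 Dyrk1a+/- libraries exceeded all 3 wt libraries for Mxd4, Mxd1 and Mga, 3 of 10 members, where 6.53% of all genes tested did so. No member had all Dyrk1a+/- libraries below all wt libraries, against 7.49% of genes tested. At an adjusted p under 0.05, edgeR called 0 of 10 members and 0.0103% of the 19403 genes tested; at an unadjusted p under 0.05 there were 2 of 10 members, Mxd4 and Mxd1, against 7.88% of genes. DESeq2 called 1 member, Mxd4, and 0.17% of the genes it tested, and edgeR called Mxd4 and 0.0309% of genes once the library pair was a term of the fit. Nothing is read from these counts, since the same contrast chose the members.

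**Figure D1:**
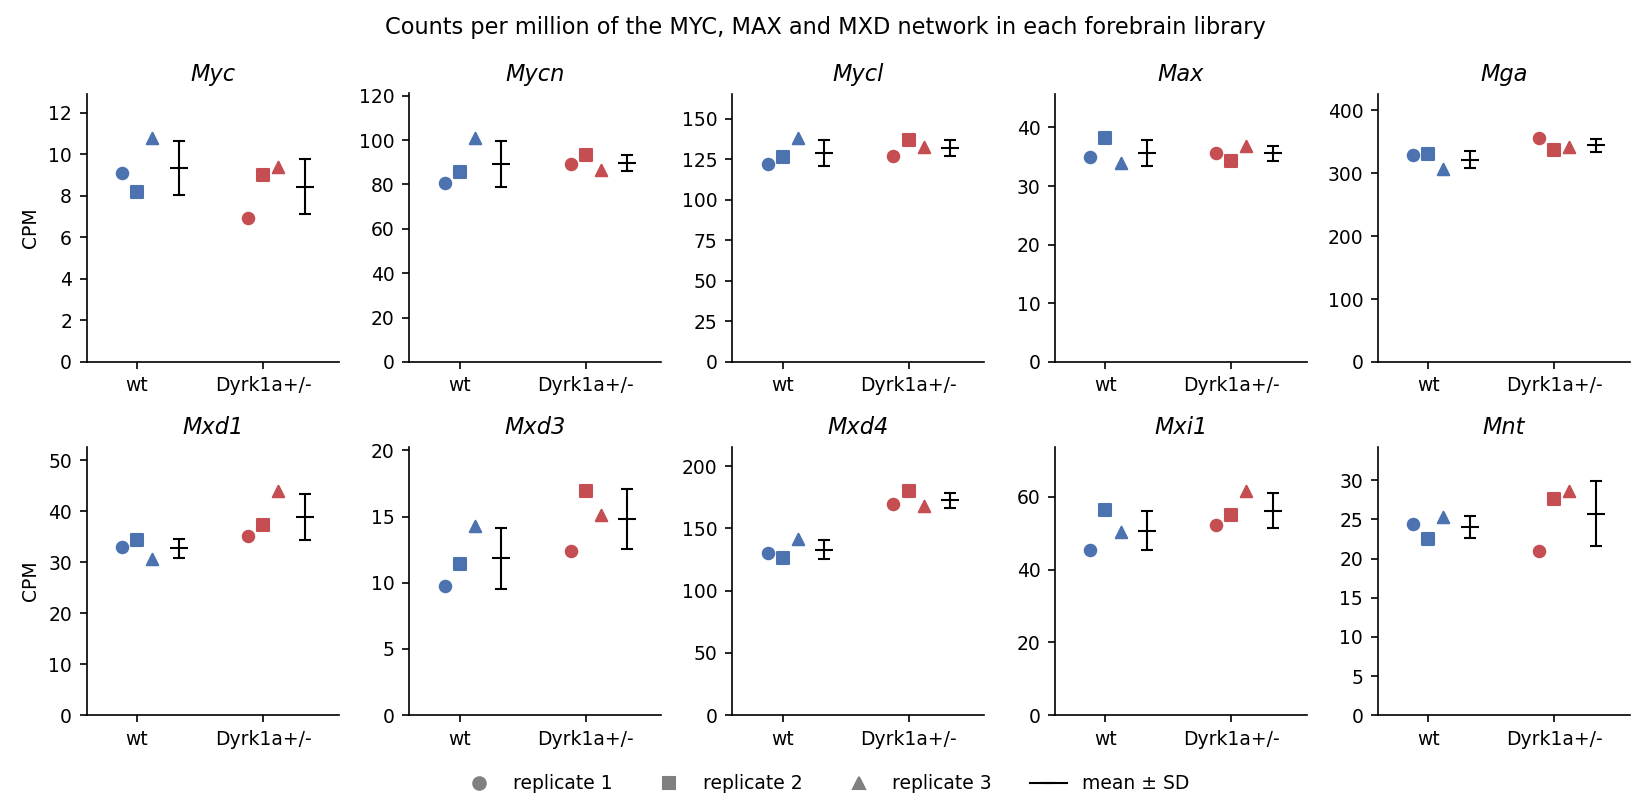
Each panel plots 1 network member, with CPM on an axis that starts at 0, the 3 wt libraries in blue and the 3 Dyrk1a+/- libraries in red, marker shape giving the replicate number and black bars the mean ± SD. The 2 groups are separate for Mxd4, Mxd1 and Mga and overlap for the 7 other genes.

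Mxd4 (ENSMUSG00000037235, chromosome 5, 34173883 to 34187720, minus strand), a MAX-dependent repressor, is the gene whose values led to the choice of the network. Its wt libraries had 130.5, 126.4 and 141.2 CPM and its Dyrk1a+/- libraries 169.7, 179.6 and 167.8. The lowest Dyrk1a+/- library was thus above the highest wt library by more than the range of either group. Its log2 fold change came to 0.38 (SE 0.074), with 0.35 inside the pair that stood apart and 0.39 among the 4 others. It ran from 0.34 to 0.42 with each library left out in turn. By the size of an upward fold change Mxd4 ranked 817 of 19403 genes. The antisense gene Gm42846 shares 514 bases of exon with Mxd4 and had 3 counts in all, against 22551 for Mxd4.

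Mxd1 (ENSMUSG00000001156, chromosome 6, 86647042 to 86669161), known as the MAD repressor of differentiating cells, was lower in level and less even. The wt libraries had 33, 34.4 and 30.7 CPM, and the Dyrk1a+/- libraries 35.2, 37.3 and 43.9. The groups did not overlap, but wt replicate 2 and Dyrk1a+/- replicate 1 were nearly level and Dyrk1a+/- replicate 3 stood above the rest. The log2 fold change was 0.25 (SE 0.10), and 0.15 without Dyrk1a+/- replicate 3. Inside the pair that stood apart it was 0.28, and among the 4 others 0.22.

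Mxd3 (ENSMUSG00000021485, chromosome 13, 55325168 to 55329823), the family member of S phase, had few counts, 1969 over all libraries. Its wt libraries had 9.78, 11.4 and 14.3 CPM and its Dyrk1a+/- libraries 12.4, 16.9 and 15.1. The groups overlapped, since wt replicate 3 was above Dyrk1a+/- replicate 1; wt replicate 3 and Dyrk1a+/- replicate 2, the pair rich in 7SK RNA, were the highest of their genotypes. The log2 fold change was 0.32 (SE 0.17), 0.23 within that pair and 0.36 within the 4 others, and ran from 0.20 without wt replicate 1 to 0.485 without wt replicate 3. Prelid1, on the opposite strand, shares 105 bases of exon with Mxd3, the library kit marks strand, and the strand setting of the counting is not given in the sources used here. Prelid1 had 66.7 ± 7.05 CPM in wt and 66.7 ± 4.88 in Dyrk1a+/- (SD, n = 3 each).

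Mxi1 (ENSMUSG00000025025, chromosome 19, 53310518 to 53375810), the MXD2 protein under another name, had 45.5, 56.34 and 50.45 CPM in wt and 52.2, 54.9 and 61.5 in Dyrk1a+/-. The groups overlapped, with wt replicate 2 above 2 of the 3 Dyrk1a+/- libraries. The log2 fold change was 0.15 (SE 0.10) and ran from 0.07 without wt replicate 1 to 0.225 without wt replicate 2. Mnt (ENSMUSG00000000282, chromosome 11, 74830920 to 74845725), the broadly expressed antagonist of MYC, had 24.4, 22.5 and 25.3 CPM in wt and 20.9, 27.6 and 28.6 in Dyrk1a+/-. Dyrk1a+/- replicate 1 was the lowest of all 6 libraries and the other two the highest, so the mean log2 fold change of 0.09 (SE 0.13) was 0.22 without that library and 0.01 without Dyrk1a+/- replicate 3.

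The genotypes overlapped for the activators, as they did for Mxd3, Mxi1 and Mnt. The 95% intervals of Mxd3 (-0.06 to 0.71), Mxi1 (-0.08 to 0.37), Mnt (-0.19 to 0.38) and Mga (-0.06 to 0.26) held both signs. Those of Mxd4 (0.21 to 0.54) and Mxd1 (0.02 to 0.47) did not. These intervals are not adjusted for the number of genes. The same contrast led to the choice of members through Mxd4, so they describe the spread and carry no test. Mycn (ENSMUSG00000037169, chromosome 12, 12936093 to 12941914), the MYC gene of neural progenitors, had 80.7, 85.7 and 100.8 CPM in wt and 89.1, 93.4 and 86.6 in Dyrk1a+/-. The Dyrk1a+/- libraries all fell inside the wt range, with a log2 fold change of 0.01 (SE 0.093; its 95% interval ran from -0.20 to 0.22). Mycl (ENSMUSG00000028654, chromosome 4, 122995652 to 123002485), the least potent of the MYC activators, had 122.5, 126.5 and 138.1 CPM in wt and 127.1, 136.9 and 132.8 in Dyrk1a+/-, again inside the wt range (log2 fold change 0.04, SE 0.075, 95% interval -0.13 to 0.21). Myc (ENSMUSG00000022346, chromosome 15, 61985391 to 61990374) had 9.08, 8.16 and 10.8 CPM in wt and 6.95, 9.01 and 9.38 in Dyrk1a+/-. The Myc groups overlapped, the lowest library being Dyrk1a+/- replicate 1; the log2 fold change of -0.15 (SE 0.16, 95% interval -0.51 to 0.22) was -0.02 without it.

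Max (ENSMUSG00000059436, chromosome 12, 76937269 to 76962201), the partner of every other member, had 35, 38.2 and 33.85 CPM in wt and 35.6, 34.3 and 36.8 in Dyrk1a+/-. Its Dyrk1a+/- libraries lay inside the wt range, and its log2 fold change of -0.003 (SE 0.081, 95% interval -0.19 to 0.18) changed sign with the scaling (0.002 with DESeq2's size factors). Mga (ENSMUSG00000033943, chromosome 2, 119897228 to 119969581) had 328.7, 330.3 and 306.2 CPM in wt and 355.6, 336.2 and 341.6 in Dyrk1a+/-. The groups did not overlap, but the gap between them was small beside the wt range, and the log2 fold change was 0.10 (SE 0.069). For the members not yet split by library pair, the log2 difference within the pair and within the 4 others was -0.11 and 0.08 for Mycn, opposite in sign, as it was for Mycl (-0.01 and 0.06) and Max (0.02 and -0.01). It was -0.25 and -0.09 for Myc, 0.12 and 0.16 for Mxi1, 0.12 and 0.06 for Mnt, and 0.13 and 0.08 for Mga.

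**Figure D2:**
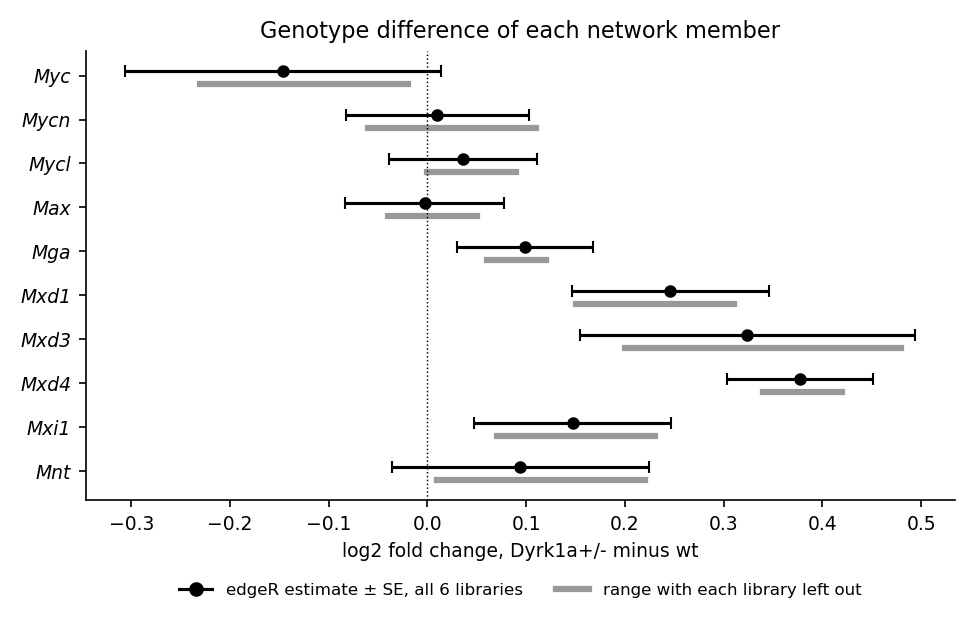
The horizontal axis is the log2 fold change of Dyrk1a+/- minus wt for each of the 10 members, with black points and bars for the edgeR estimate ± SE and grey bars for the range with each library left out in turn. Mxd4 ran from 0.34 to 0.42 and had the narrowest bar among the members with estimates above 0.2, while Mycn, Mycl and Max lay around 0.

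Levels of different members were compared only per length, here as CPM per kilobase of annotated exon (the union of all exons). The values are means over all 6 libraries. They pool both genotypes and so include the higher Dyrk1a+/- values of Mxd4 that led to the choice of members. Mycl was highest at 32.4 ± 1.55 (SD, n = 6), then Mycn at 27.1 ± 2.11, Mga at 21.7 ± 1.07 and Mxd4 at 18 ± 2.66 (15.6 ± 0.901 in wt and 20.3 ± 0.748 in Dyrk1a+/-, SD, n = 3 each). Max was at 9.9 ± 0.452, Mxi1 at 7.84 ± 0.80, Mxd3 at 5.62 ± 1.10, Mnt at 5.38 ± 0.63 and Mxd1 at 5.06 ± 0.643. Myc was lowest at 3.27 ± 0.469. Neighbours in this order overlapped in range for Mycl and Mycn, for Mga and Mxd4, and from Mxi1 through Mxd3 and Mnt to Mxd1. They did not overlap between Mycn and Mga, Mxd4 and Max, Max and Mxi1, or Mxd1 and Myc.

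The place of Mxd4 in that order depended on the length used and on the genotype. Its exons together cover 8483 bases but its longest coding transcript has 3872, and per kilobase of that transcript the means over 6 libraries were 39.4 for Mxd4, 37.3 for Mycl, 33.4 for Mycn, 23.9 for Mga and 18.3 for Max. In wt alone Mycl came first at 36.9 ± 2.32 and Mxd4 next at 34.3 ± 1.97, while in Dyrk1a+/- Mxd4 was at 44.5 ± 1.64 and Mycl at 37.8 ± 1.4 (SD, n = 3 each). On that scale Mxi1 was at 10.6, Mxd3 at 10, Mxd1 at 7.66, Mnt at 5.42 and Myc at 3.8. On both scales Mycl and Mycn were above every member but Mxd4, and Myc was the lowest. Within the MYC family, Mycl made up 51.3% ± 1.32 of the summed CPM per kilobase in wt, Mycn 43.2% ± 1.19 and Myc 5.5% ± 0.449 (SD, n = 3). In Dyrk1a+/- Mycl made up 51.9% ± 0.51, Myc 4.92% ± 0.674 and Mycn 42% to 44.3% over the 3 libraries. Within the MXD family Mxd4 made up 47.9% ± 2.29 in wt and 50.5% ± 2.53 in Dyrk1a+/- per kilobase of exon union. Over the longest coding transcripts its mean share was 56.9% in wt and 59.3% in Dyrk1a+/-.

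**Figure D3:**
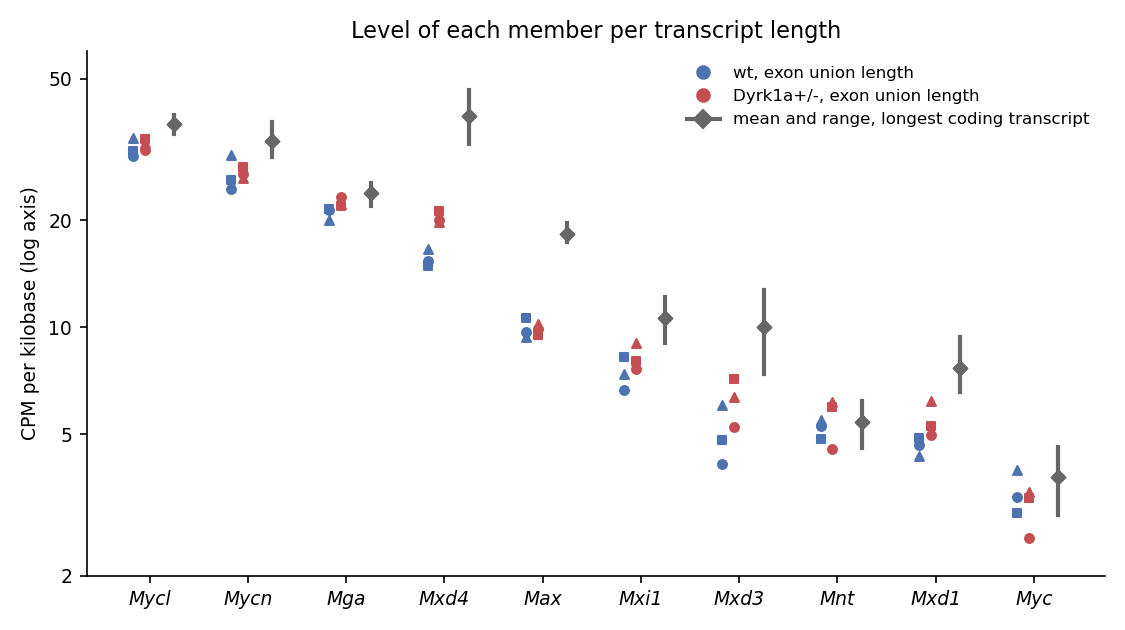
The vertical log axis is the level of each member in CPM per kilobase; blue and red points are the 3 wt and 3 Dyrk1a+/- libraries over the exon union, and grey diamonds and bars the mean and range over the longest coding transcript. Mycl, Mycn and Mga lead over the exon union, Mxd4 has the highest pooled mean over the longest coding transcript, 39.4, though not in wt alone (34.3 against 36.9 for Mycl), and Myc is lowest on both.

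Summed by family, per kilobase of exon, Myc, Mycn and Mycl together gave 58.2, 60.4 and 68.8 in wt and 61.1, 65.5 and 62.6 in Dyrk1a+/-, with means of 62.4 ± 5.6 and 63.1 ± 2.27 (SD, n = 3). Mxd1, Mxd3, Mxd4 and Mxi1 together gave 30.8, 32.8 and 34.4 in wt and 37.9, 41.6 and 41.4 in Dyrk1a+/-. The MYC sums overlapped between genotypes and the MXD sums did not. The ratio of the MYC sum to the MXD sum was 1.89, 1.84 and 2 in wt and 1.61, 1.57 and 1.51 in Dyrk1a+/-, so that every Dyrk1a+/- library was below every wt library. The MXD sum and this ratio both hold Mxd4, whose higher values led to the choice of members, so their separation carries no test. Mxd4 was the largest part of the MXD sum, and without it that sum was 15.5, 17.9 and 17.8 in wt and 17.9, 20.5 and 21.6 in Dyrk1a+/-, so that the highest wt and the lowest Dyrk1a+/- libraries met at 17.9. The ratio of the MYC sum to that smaller sum was 3.76, 3.36 and 3.87 in wt and 3.42, 3.2 and 2.9 in Dyrk1a+/-, and the groups overlapped. Over the longest coding transcripts the mean ratio was 1.23 in wt and 0.998 in Dyrk1a+/- with Mxd4 in the sum, and 2.86 and 2.46 without it. These are transcript levels, and protein was not measured.

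**Figure D4:**
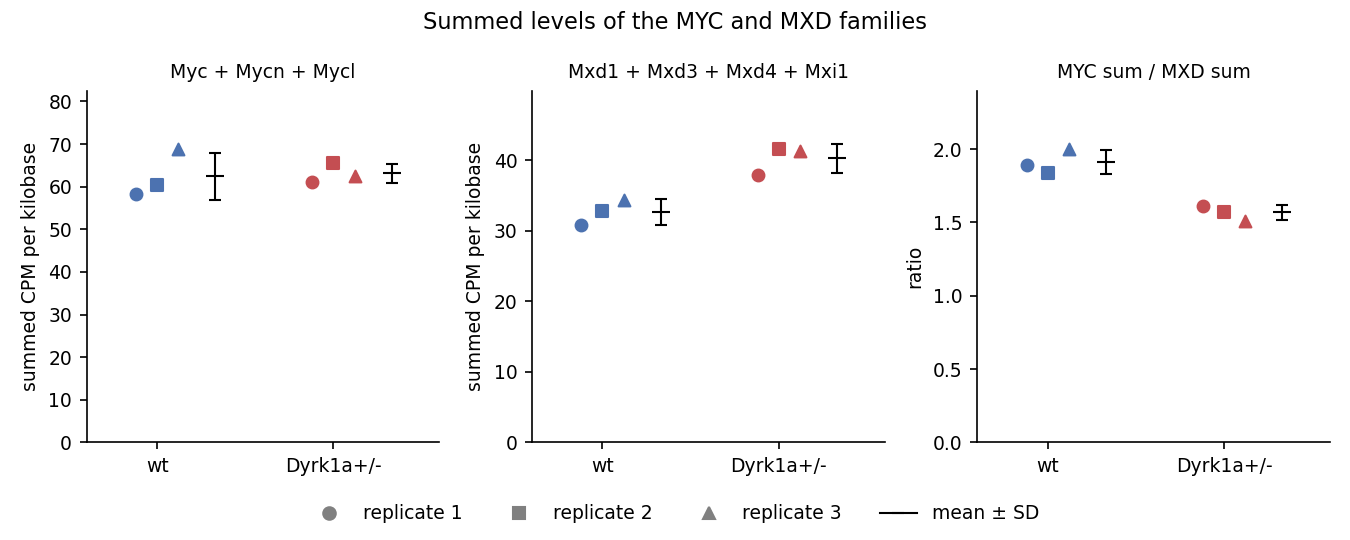
The left and middle panels plot the summed CPM per kilobase of exon of the MYC genes and of the MXD genes with Mxi1, and the right panel their ratio, on axes that start at 0; points are libraries and bars the mean ± SD. The MYC sums overlap between genotypes, the MXD sums are 30.8 to 34.4 in wt and 37.9 to 41.6 in Dyrk1a+/-, and the ratio is 1.84 to 2 against 1.51 to 1.61. The MXD sums and the ratio hold Mxd4, the gene that led to the choice of members.

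The proteins the network works with were read from fixed lists, described by counts and medians beside all genes tested, of which 51.2% were higher in Dyrk1a+/- with a median log2 fold change of 0.005. In none of the 8 lists did edgeR or DESeq2 call a gene over all genes; counts at an unadjusted p under 0.05 follow each list, against 3.27% of all genes higher and 4.61% lower. In the parallel MLX arm, MONDO proteins sense glucose and pair with MLX instead of MAX. Its list of 5 genes held Mlx, Mlxip and Mlxipl. It also held Txnip (log2 fold change 0.10, SE 0.078) and Arrdc4 (-0.02, SE 0.072), which encode neither MLX nor MONDO proteins. Mlx and Txnip were higher, 2 of 5 genes, with a median of -0.015 and 0 genes at an unadjusted p under 0.05. Mlx had 27.3 ± 0.867 CPM in wt and 28.35 ± 2.81 in Dyrk1a+/-, Mlxip 73.5 ± 1.71 and 72.7 ± 3.04, and Mlxipl 0.843 ± 0.202 and 0.764 ± 0.139 (SD, n = 3 each).

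Of 18 genes of the SIN3 and NCOR corepressors, through which MXD proteins silence genes, 17 lay above wt and the median log2 fold change was 0.089; in 5 the genotypes did not overlap, all of them higher, where 6.53% of all genes lay wholly above wt and 7.49% wholly below. By the same count, 3 coactivators, 2 PRC1.6 genes, 3 turnover genes, 3 ribosome biogenesis genes and 8 growth and metabolism genes lay wholly above wt, and 1 turnover gene, 1 growth and metabolism gene and 2 MYC-repressed genes wholly below. At an unadjusted p under 0.05 were 2 of 18, picked out here after their values were seen: Sap30, a SIN3 subunit (0.40, SE 0.12), and Sinhcaf, another (0.30, SE 0.087). The most abundant per kilobase were the deacetylase Hdac2 (0.08, SE 0.084) and the histone chaperone Rbbp4 (0.15, SE 0.07). Of 19 MYC coactivators and partners 17 were higher, with a median of 0.088 and 1 gene at an unadjusted p under 0.05, Actl6a (0.29, SE 0.092). Their most abundant members, Hcfc1 and Trrap, the scaffold through which MYC recruits histone acetyltransferases, had 0.10 (SE 0.082) and -0.02 (SE 0.072). The coactivator median was 0.054 without Dyrk1a+/- replicate 2.

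Partners of MGA in the PRC1.6 complex lay above wt for 8 of 10 genes (median 0.074), with 1 gene at an unadjusted p under 0.05, the repressor E2f6 (0.38, SE 0.11). The most abundant, Cbx3 and Rnf2, had 0.17 (SE 0.20) and 0.07 (SE 0.12). Of 17 genes that set the life of MYC proteins, 15 were higher with a median of 0.036, and 2 were at an unadjusted p under 0.05, the ubiquitin ligase subunit Skp2 (0.19, SE 0.074) and the mitotic kinase Aurka (0.29, SE 0.11), both of which are also made in dividing cells. The ligase gene Huwe1 (0.03, SE 0.064) and Set (0.16, SE 0.11) were the most abundant. Leaving out 1 library moved both medians: the PRC1.6 median was 0.169, 0.132 and 0.123 without Dyrk1a+/- replicate 2, wt replicate 1 and wt replicate 2, and 0.013 and 0.016 without Dyrk1a+/- replicate 3 and wt replicate 3. The turnover median was 0.098 without wt replicate 3, 0.074 without Dyrk1a+/- replicate 1 and 0.016 without Dyrk1a+/- replicate 2.

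Genes known to be activated by MYC were read as a pair of lists. Of 24 genes of ribosome biogenesis 20 lay above wt (median log2 fold change 0.063), with 1 gene at an unadjusted p under 0.05, Npm1, a nucleolar chaperone (0.22, SE 0.088; 188 ± 15.3 CPM in wt and 219.7 ± 15.7 in Dyrk1a+/-, SD, n = 3). Ncl, which encodes nucleolin, had 0.10 (SE 0.084). The ribosome biogenesis median was 0.024 without wt replicate 1 and 0.041 without Dyrk1a+/- replicate 2. Of 36 genes of growth and metabolism 25 were higher, with a median of 0.087 and 8 at an unadjusted p under 0.05, all higher. Picked out after their values were seen, these were Shmt2, of one-carbon metabolism, and 7 genes of DNA replication or entry into the cycle, Pcna, Mcm4, Mcm5, Tyms, E2f1, E2f2 and Cdc25a, which dividing cells make in general. Cdk4 and Eif4a1, the most abundant, had 0.19 (SE 0.10) and 0.09 (SE 0.088). Of 6 tested genes that MYC is known to repress, 3 were higher and 3 lower, with a median of -0.08 and 1 at an unadjusted p under 0.05, the chaperone gene Clu (-0.43, SE 0.13). That median was 0.012 without Dyrk1a+/- replicate 1, -0.007 without wt replicate 3 and -0.12 without wt replicate 2. The cell cycle inhibitor gene Cdkn1b and Ndrg2 had 0.12 (SE 0.082) and -0.17 (SE 0.12).

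Genes with CACGTG in the promoter window did not stand apart as a whole. The 1347 tested genes with the letters had a median log2 fold change of 0.005, against 0.008 in the tested genes whose window lacked them. Of the genes with the letters 52.5% were higher in Dyrk1a+/-, beside 51.2% of all genes tested, with or without a window. The letters were in 5 of 19 ribosome biogenesis genes and 9 of 31 growth and metabolism genes that had a window, or 26.3% and 29%, beside 11% of all tested genes. In these lists the genes with the letters had medians of 0.027 and 0.089, and those without 0.101 and 0.095.

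Markers of cell types were read from fixed lists too, and the sums of some lists lay apart between the genotypes while others overlapped. All 10 cycling cell markers lay above wt (median log2 fold change 0.343), and their summed level ran from 927 to 1024 CPM in wt and from 1155 to 1433 in Dyrk1a+/-; edgeR called 0 over all genes, with 9 at an unadjusted p under 0.05 (3.27% of all genes were so and higher). DESeq2 called 2 of them, against 0.17% of all genes: Mki67 (0.51, SE 0.12) and Cenpf (0.42, SE 0.092), the latter picked out after its value was seen. Of 12 markers of postmitotic neurons 11 were lower, with a median of -0.179, 5 at an unadjusted p under 0.05 (4.61% of all genes were so and lower) and a summed level of 7173 to 7682 CPM in wt and 6609 to 6903 in Dyrk1a+/-. The sums of intermediate progenitor markers, of which 7 of 8 were higher and 4 at an unadjusted p under 0.05, were 357.8 to 396.8 and 400.2 to 478.8 CPM. In these sums wt replicate 2 and Dyrk1a+/- replicate 2 were nearly level. Elavl4 gave 130.5 ± 16.5 CPM of the wt sum and 136.9 ± 15 of the Dyrk1a+/- sum (SD, n = 3 each), and overlapped between genotypes. Apical progenitor markers overlapped, at 1370 to 1548 and 1445 to 1643 CPM, with 8 of 10 higher and 4 at an unadjusted p under 0.05, all higher. Of 6 meningeal markers 4 were lower, with sums of 233.6 to 261.8 CPM in wt and 190.1 to 221.6 in Dyrk1a+/-, and 2 at an unadjusted p under 0.05, both lower. In CPM, which is not scaled for gene length, Col1a2 was the largest part of these sums, with 153.6 ± 10.5 in wt and 123.4 ± 6.99 in Dyrk1a+/- (SD, n = 3 each). Log2 fold changes were -0.316 for Col1a2, -0.356 for Slc6a13, -0.2 for Dcn, -0.024 for Foxc1, 0.008 for Col1a1 and 0.108 for Lum. Microglial markers (46.5 to 51.8 and 41.1 to 49.4 CPM; 5 of 6 lower, with 1 at an unadjusted p under 0.05, lower) and endothelial markers (212.3 to 242.9 and 207.5 to 235.2; 5 of 6 lower, 0 at an unadjusted p under 0.05) overlapped between genotypes. Erythroid sums overlapped too, at 710.2 to 885.9 and 556.8 to 722.2 CPM, but their genes went opposite ways. The adult globins and Alas2 were lower (4 of 6 genes, 3 at an unadjusted p under 0.05), while the embryonic globins Hbb-y (log2 fold change 2.62, SE 0.53; wholly above wt, and the 1 higher gene at an unadjusted p under 0.05) and Hba-x (1.21, SE 0.54), picked out after their values were seen, were higher. By edgeR and DESeq2 neither was called over all genes. None of these markers was at 0, and their part in the values of Mxd4, Mxd1, Mxd3 and the target lists was not tested. The sums of cycling, intermediate progenitor, neuronal and meningeal markers did not overlap between genotypes. How often sums of as many other genes separate was not tested.

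**Figure D5:**
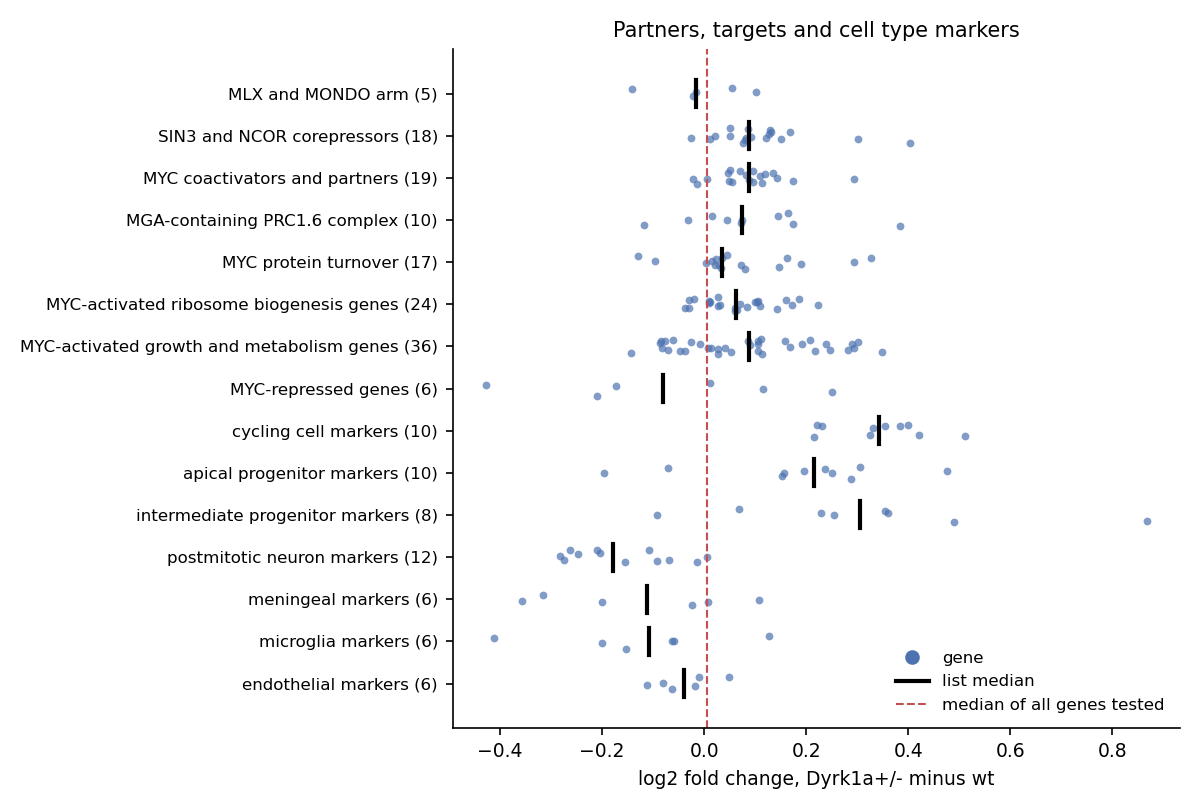
The horizontal axis is the log2 fold change of Dyrk1a+/- minus wt; each point is a tested gene of the fixed list named at the left with its number of tested genes, black bars are list medians and the dashed red line is the median of all genes tested, 0.005. Lists of partners and targets have medians between -0.08 and 0.089, while cycling markers sit at 0.343 and neuronal markers at -0.179; erythroid, forebrain and midbrain to cord markers are not drawn.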

How the data were processed

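Raw counts per Ensembl gene were deposited as 1 table with 1 column per library. Per the submitters' processing notes, bcl2fastq 2.17.1.14, HISAT2, SAMtools 1.9 and HTSeq 0.9.1 were used with GRCm38/mm10; no annotation release or strand setting is stated there. The labels give polyA as the molecule and a stranded Ribo-Zero kit as the protocol. Symbols, positions and lengths came from GENCODE M21 (GRCm38), which named 32888 of 33084 identifiers and matched 216 of 217 list entries.

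Genes kept by filterByExpr, 19403, were fitted with edgeR 4.0.16 (R 4.3.3) by quasi-likelihood with TMM scaling and genotype as the only term, and adjusted by Benjamini-Hochberg over all genes at 0.05. Within-pair differences used log2(CPM + 0.5). DESeq2 1.42.0, other filters and scalings, a replicate block, a term for the library pair, thinned counts and leaving out each library were alternatives; fits were checked on simulated data. No pair of libraries agreed within sampling noise (chi-square over genes). Protein sequences were not used here, so the planned identity between members was not computed.

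The members and gene lists were chosen with earlier results of these data known. Named genes are the members, Dyrk1a, the MLX arm, the 2 most abundant tested genes of a list, and genes the text marks as picked by value or listed to fill a count.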

Additional observations from a re-analysis of the deposited data

How the results depend on the processing

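Leaving out any 1 library, the number of members called by edgeR was 0 in every case, and it was 1, Mxd4, with DESeq2 and with the term for the library pair; the cause was not tested. Mxd4, Mxd1, Mxd3, Mxi1, Mnt and Mga were higher and Myc lower in Dyrk1a+/- under every alternative run. Members near 0 changed sign: Max was at 0.002 with DESeq2's size factors, with DESeq2's own test and with library sizes that leave out the 3 non-coding RNAs, and at 0 in thinned counts, and Mycn was at -0.002 with no low-count filter. With 1 library left out, Mycn ran from -0.057 to 0.108, Mycl from -0.001 to 0.087 and Max from -0.039 to 0.045. The median of the MYC turnover genes ran from 0.016 to 0.098, that of PRC1.6 from 0.013 to 0.169, that of ribosome biogenesis from 0.024 to 0.093, that of the MYC-repressed genes from -0.12 to 0.012 and that of the MLX arm from -0.036 to 0.03. With replicate number as a block, 0 members were called and Mxd4 was at 0.378 (SE 0.098), while calls over all genes went from 2 to 0. Same-numbered libraries deviated together in 1 of 3 pairs (correlations 0.24, -0.38 and -0.22). Deviations were taken from the mean of each genotype, so these correlations depend on each other. The highest was between wt replicate 3 and Dyrk1a+/- replicate 2 (0.53), the pair that stood apart. Whether the numbers pair the libraries is therefore not settled. Over all genes edgeR called 4 with no filter, 5 without Dyrk1a+/- replicate 2, 6 with the library pair term and 0 without wt replicate 1, wt replicate 2, Dyrk1a+/- replicate 1 or Dyrk1a+/- replicate 3, and DESeq2 called 27. Per kilobase of the longest coding transcript, the level of every member but Mnt moved by more than its spread over libraries. SEs were largest for Mxd3 (0.17) and Myc (0.16), the members with the fewest counts; whether depth sets them was not tested, and with the library pair term they were 0.11 and 0.13.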
